A study of Rattus norvegicus with 21 samples.

Results

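Hypoxia-inducible factors (HIFs), their oxygen-sensing regulators and their target genes outside glycolysis were followed in rat insulinoma cells exposed to inorganic arsenic. The set was defined by name as 34 genes, each of which matched 1 row of the deposited mRNA table, and 31 of them had a mean of at least 10 normalized counts over the 9 mRNA libraries. These 31 are the members tested, out of 14410 genes that passed the same minimum and 32750 genes in the table. The stanniocalcin gene Stc2 was listed at 0 in every library. The lysyl hydroxylase gene Plod2, at 0 to 6.03 normalized counts, and the lysyl oxidase-like gene Loxl2, at 0 to 9.45, lay below the minimum and were not tested.

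The cells were INS-1 832/13, a clonal insulin-secreting rat line, so every library comes from 1 line. They were seeded in 12-well plates and exposed for 24 h. For mRNA, 5 libraries carried the label of 1 µM inorganic arsenic (iAs, spelled "asenic" in the labels) and 4 the label untreated. For small RNA there were 3 libraries each of 1 µM iAs, 5 µM cadmium (Cd), 25 µM manganese (Mn) and untreated cells.

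HIFs are pairs of an oxygen-regulated alpha subunit and a constant beta subunit that bind hypoxia response elements and switch on genes for blood vessel growth, metabolism and survival. When oxygen, iron and 2-oxoglutarate are at hand, prolyl hydroxylases mark the alpha subunit for capture by the von Hippel-Lindau protein and destruction, so that the pathway is set mainly by protein stability rather than by alpha subunit mRNA. Beta cells respire heavily when glucose is high, and loss of the von Hippel-Lindau protein in beta cells is known to impair insulin secretion in mice.

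Column totals of the mRNA libraries lay between 51009800 and 55869159 normalized counts, and the value of 1 read differed between libraries from 0.81 to 1.2 normalized counts. All mRNA directions rest on the group labels, and both genes used to check them went the opposite way to their known response to arsenite. Hmox1, the heme oxygenase gene that arsenite is known to induce, had 1175 to 2337 normalized counts in the libraries labelled iAs and 12135 to 16234 in the untreated libraries (log2 difference -3.06, limma adjusted p = 8.53e-07). The metallothionein gene Mt1, also known to be induced, had 591 to 1159 in those labelled iAs and 2669 to 5575 in the untreated libraries (log2 difference -2.04, adjusted p = 8.51e-05). Lane 4 held every library labelled iAs and lane 3 every untreated one, and the effects of lane and group cannot be told apart. A label names liver as the tissue, but all 8 beta cell markers were measured, with summed levels of 2243410 to 2764141 normalized counts in the libraries labelled iAs and 2502942 to 2912333 in the untreated libraries. Most of that sum was Ins1 and Chga. Of the 8, Chga was called higher (0.36, adjusted p = 0.0169) and Nkx6-1 lower (-0.46, adjusted p = 0.00408), both without overlap. Albumin transcript (Alb) was at 0 in every library except iAs replicate 5, at 2.01. The 8 hepatocyte markers summed to 5153 to 6325 in those labelled iAs and 5789 to 6362 in the untreated libraries, mostly Hnf4a. Of the 4 that were tested, Fgb (-1.34, adjusted p = 5e-05) and Ass1 (-0.45, adjusted p = 4.93e-04) were called lower without overlap. The 5 matched fibroblast, endothelial and immune markers, mostly Thy1, summed to 5784 to 8503 in those labelled iAs and 9264 to 12882 in the untreated libraries, with the pan-leukocyte gene Ptprc at 0 throughout. The 3 that were tested were called lower without overlap, Thy1 (-0.54, adjusted p = 0.00557) and, at low levels, Col1a1 (-1.98, 0.0441) and Cd74 (-3.05, 0.0121). The 4 acinar and duct markers summed to 353 to 527 in those labelled iAs and 61.4 to 108 in the untreated libraries, almost all of it Sox9, with Cpa1 and Prss1 at 0. Only Sox9 was tested, and it was called higher without overlap (2.40, adjusted p = 5.89e-06). The part of these shifts in the results below was not tested.

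Of the 23 HIF target genes tested, 13 were called higher in the libraries labelled iAs, while the mRNAs of the HIF subunits themselves showed no called difference. Of the 31 members tested, 14 were called higher (45.2%) and 2 lower (6.45%), where a call is a limma adjusted p under 0.05 across all 14410 genes. Among all genes tested, 15.1% were called higher and 14.9% lower, 30.0% in all. The median log2 difference of the members was 0.21, against -0.001 for all genes tested. The members were chosen with earlier results of these data known, so the counts and this median are descriptions and not tests. The groups did not overlap for 13 members, against 25.9% of all genes. Of these 12 were higher and 1 was lower, where 13.0% and 12.9% of all genes had no overlap in those directions. At 1.5-fold or more, 8 members were called higher, against 3.91% of all genes called higher by that size. In bulk RNA fewer cells of a type and less RNA per cell cannot be told apart. Whether the libraries are independent cultures is not labelled, and the spread behind each p may be technical.

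**Figure D1:**
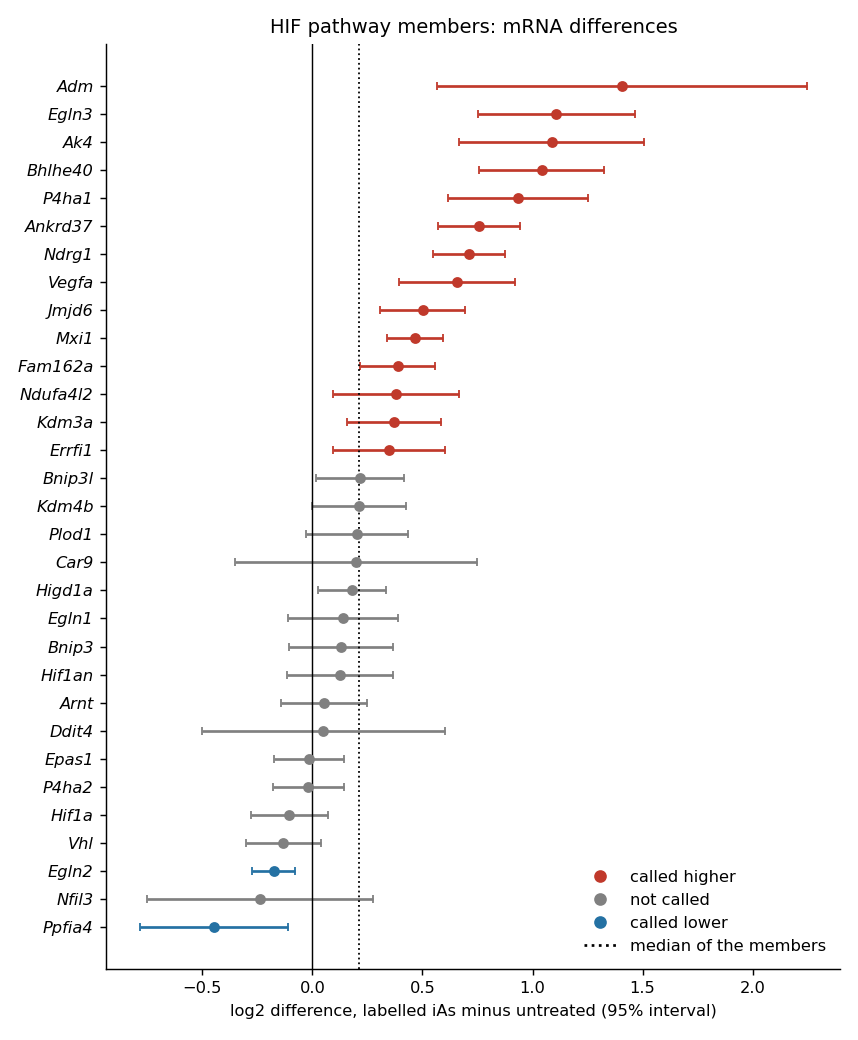
Log2 difference (labelled iAs minus untreated, on the log2(value + 1) scale) of each of the 31 members tested, with 95% intervals from limma; colours mark the 14 called higher, the 2 called lower and those not called, and the dotted line is the members' median of 0.21. The highest estimates are those of Adm, Egln3, Ak4 and Bhlhe40, and the lowest is that of Ppfia4.

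The alpha subunit genes come first in the pathway. Hif1a (ENSRNOG00000008292), which encodes the broadly used alpha subunit, had 1566, 1962, 1808, 1839 and 1892 normalized counts in iAs replicates 1 to 5, against 2202, 1789.6, 1950.1 and 1863 in untreated replicates 1 to 4. The groups overlapped, with 4 of the 5 libraries labelled iAs inside the untreated range, and the log2 difference was -0.11 (95% interval -0.28 to 0.07, limma adjusted p = 0.355). Epas1 (ENSRNOG00000021318), the gene of the alpha subunit also called HIF-2 alpha, had 10338, 9313, 9047, 9858 and 10482 in the libraries labelled iAs and 8667, 10315, 9669.5 and 11142 in the untreated libraries. Every library labelled iAs lay within the untreated range, and the difference was -0.02 (-0.18 to 0.14, adjusted p = 0.886). Arnt (ENSRNOG00000031174), which encodes the shared beta subunit, had 1164, 1121, 1164, 902 and 985 in those labelled iAs, against 1007, 1098, 1036 and 957 in the untreated libraries (0.05, interval -0.14 to 0.25, adjusted p = 0.693). Its groups overlapped as well, with the highest and the lowest library both labelled iAs. All 3 intervals lie within a 1.5-fold change, 0.585 on the log2 scale, in either direction.

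Of the 3 prolyl hydroxylase genes, whose products mark the alpha subunits for destruction, 1 was called higher and 1 lower, and differences between the genes were not tested. Egln3 (ENSRNOG00000005053), itself a HIF target, had 1371, 1294, 1191, 1131 and 1141 normalized counts in the libraries labelled iAs and 414, 613, 486 and 831 in the untreated libraries. Every library labelled iAs was above every untreated one, and the mean was 1226 ± 104 (SD, n = 5) against 586 ± 183 (SD, n = 4), a 2.16-fold rise (log2 difference 1.11, SE 0.16, limma adjusted p = 4.32e-04). Egln2 (ENSRNOG00000020947), a relative of the same family, had 4958, 5216, 5265, 5351 and 5221 in those labelled iAs, against 5699, 5997, 5883 and 5933 in the untreated libraries. Its groups did not overlap either, since spread was small in both, and it fell by 0.18 on the log2 scale (SE 0.04, adjusted p = 0.0105). That call was lost with a replicate block (adjusted p = 0.0709) and in the 5 libraries whose code ends in 52 (0.103). The replicate block adds the replicate number as a term and leaves out iAs replicate 5, which has no untreated library of its number. The labels do not say that libraries of equal number are pairs. Egln1 (ENSRNOG00000019773), the main hydroxylase of the alpha subunit in most cells, had 765, 753, 715, 903 and 849 in those labelled iAs and 633, 639.7, 735 and 908 in the untreated libraries. Untreated replicate 4 was the highest of all, so the groups overlapped and the difference of 0.14 (interval -0.11 to 0.39) was not called (adjusted p = 0.399).

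Of the other oxygen-sensing genes, Vhl (ENSRNOG00000010258), which encodes the substrate receptor of the ubiquitin ligase, had 2017, 2628, 2259, 2347 and 2164 normalized counts in the libraries labelled iAs and 2582, 2349, 2362 and 2690.4 in the untreated libraries. It differed by -0.13 (interval -0.30 to 0.04, limma adjusted p = 0.231), and only iAs replicate 2 lay inside the untreated range. Hif1an (ENSRNOG00000014234), the asparaginyl hydroxylase that blocks coactivator binding, had 1390.5, 1588, 1171, 1426 and 1603 in those labelled iAs, against 1382, 1409.5, 1409 and 1067 in the untreated libraries (0.13, interval -0.11 to 0.36, adjusted p = 0.425). Untreated replicate 4 stood below the other libraries for this gene. Thus 1 of the 8 regulators was called higher, 1 lower and 6 were not called, shares near the 15.1% higher and 14.9% lower of all genes.

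**Figure D2:**
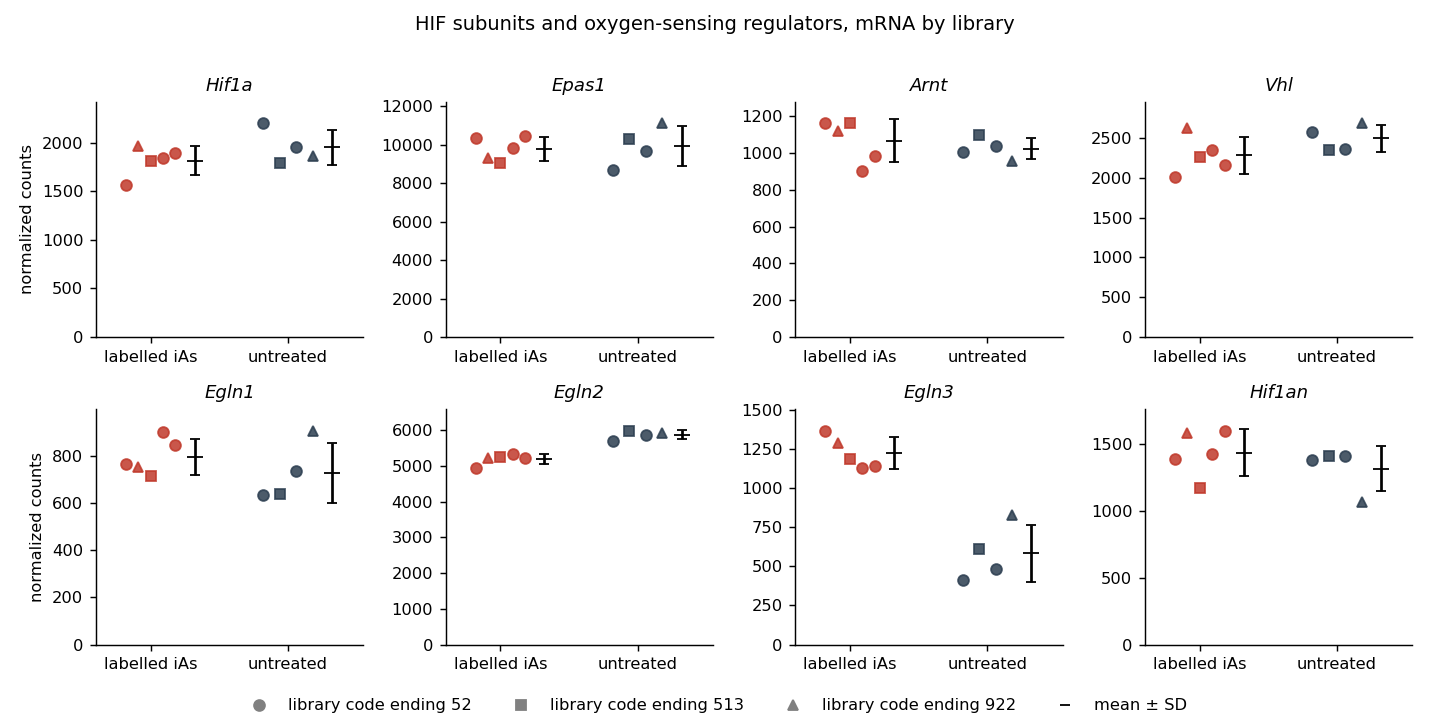
Normalized counts (vertical axes, from 0) of the 8 HIF subunit and regulator genes in each mRNA library, libraries labelled iAs left and untreated right, with symbols for the ending of the library code and bars for mean ± SD. Egln3 and Egln2 have no overlap between the groups, in opposite directions, and the other 6 genes overlap.

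Both tested genes of secreted factors were higher. Vegfa (ENSRNOG00000019598), the vascular endothelial growth factor through which beta cells sustain islet capillaries, had 56137, 41678, 48293, 44742 and 42676 normalized counts in the libraries labelled iAs, against 23425, 35619.8, 27285 and 33074 in the untreated libraries. The lowest library labelled iAs was above the highest untreated one, and the rise was 1.58-fold (log2 difference 0.66, SE 0.12, limma adjusted p = 0.00178). Adm (ENSRNOG00000027030), the gene of the vasodilator peptide adrenomedullin, had 186, 130.5, 101, 335 and 276 in those labelled iAs and 33.3, 80.8, 98.8 and 89.2 in the untreated libraries. The groups did not overlap but nearly met, at iAs replicate 3 and untreated replicate 3, and spread was wide among the libraries labelled iAs. Its difference of 1.41 (SE 0.39, adjusted p = 0.0162) was the largest estimate among the members and had the widest interval, 0.57 to 2.25. A replicate block left it just short of the threshold (1.27, adjusted p = 0.0513).

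The 6 mitochondrial and cell death genes all had positive differences, and differences between the genes were not tested. Ak4 (ENSRNOG00000045738), a mitochondrial adenylate kinase, had 1293, 976, 1044, 1322 and 1191 normalized counts in the libraries labelled iAs, against 329.6, 728, 584 and 625 in the untreated libraries. No library crossed between the groups, and the rise was 2.13-fold (log2 difference 1.09, SE 0.19, limma adjusted p = 0.00136). Fam162a, a mitochondrial protein gene induced by hypoxia, rose by 0.39 (adjusted p = 0.0029), with 3855 to 4134 in those labelled iAs and 2749 to 3680.02 in the untreated libraries. Ndufa4l2, which lowers complex I activity under hypoxia, rose by 0.38 (adjusted p = 0.0473) from low levels, at 224 to 265 in those labelled iAs and 149 to 216 in the untreated libraries. The Ndufa4l2 call was lost without each single library except untreated replicate 4 (adjusted p between 0.0606 and 0.143). The mitophagy receptor genes Bnip3 (0.13, adjusted p = 0.405) and Bnip3l (0.22, adjusted p = 0.0951) and the respiratory chain modulator Higd1a (0.18, adjusted p = 0.0745) were not called. Thus 3 of the 6 genes of this role were called higher, against 15.1% of all genes. Bnip3l was called without untreated replicate 4 (adjusted p = 0.0425) and Higd1a without iAs replicate 2 (0.028).

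Among genes of growth and stress signalling, Ndrg1 (ENSRNOG00000007393), a differentiation-related gene long used as a hypoxia marker, had 38059.5, 32009, 32531, 37582 and 36741 normalized counts in the libraries labelled iAs, against 19667, 23986, 20433 and 22284 in the untreated libraries. With no overlap between the groups, it had the smallest adjusted p of all members and rose 1.64-fold (log2 difference 0.71, SE 0.08, limma adjusted p = 4.96e-05). Ankrd37 (ENSRNOG00000031335), an ankyrin repeat gene known as a direct target of the Hif1a protein, had 1805, 1834, 1716, 2077 and 2048 in those labelled iAs and 989.98, 1073, 1179 and 1254 in the untreated libraries. Again no library crossed over, and the rise was 1.69-fold (0.76, SE 0.09, adjusted p = 7.46e-05). Errfi1, a feedback inhibitor of the EGF receptor, was called higher by 0.35 (adjusted p = 0.0414), although 1 untreated library, at 3631, lay above iAs replicates 1, 3 and 5. That call was lost without iAs replicates 1, 2, 4 or 5 or untreated replicates 1, 2 or 3 (adjusted p between 0.0584 and 0.13). Ppfia4, a liprin gene, was called lower by 0.45 on the log2 scale (adjusted p = 0.0451), with 543 to 886 in those labelled iAs and 776 to 1156 in the untreated libraries. The Ppfia4 call was lost without iAs replicates 2, 4 or 5 or untreated replicates 2, 3 or 4 (adjusted p between 0.0648 and 0.126). Ddit4, an inhibitor of mTOR signalling, was not called (0.05, adjusted p = 0.904), and neither was Car9, the membrane carbonic anhydrase widely used as a hypoxia marker (0.20, adjusted p = 0.594), at 50.4 to 89.3 in those labelled iAs and 44.0 to 81.0 in the untreated libraries.

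The collagen-modifying genes split within 1 enzyme family. P4ha1 (ENSRNOG00000050655), which encodes a catalytic subunit of collagen prolyl hydroxylase, had 7458, 7058, 6368, 7917 and 7388 normalized counts in the libraries labelled iAs, against 2561, 4146, 3959 and 4873 in the untreated libraries. All libraries labelled iAs were above all untreated ones, a 1.91-fold rise (log2 difference 0.93, SE 0.15, limma adjusted p = 6.21e-04). P4ha2, which encodes the alternative catalytic subunit, had 2286 to 2643 in those labelled iAs and 2238 to 2735 in the untreated libraries, so that its range lay inside the untreated one (-0.02, interval -0.18 to 0.14, adjusted p = 0.875). The lysyl hydroxylase gene Plod1 was not called (0.20, adjusted p = 0.178). For the oxygenases that act on chromatin and RNA-binding proteins, Jmjd6 rose by 0.50 (adjusted p = 0.0013), with 3254 to 4399 in those labelled iAs and 2513 to 2937 in the untreated libraries. The histone demethylase gene Kdm3a rose by 0.37 (adjusted p = 0.0134) with an overlap of iAs replicate 2 and the untreated range, and lost its call with a replicate block (adjusted p = 0.0671). Kdm4b, a second demethylase gene, was not called (0.21, adjusted p = 0.129), but was without iAs replicate 2 (adjusted p = 0.0333) or untreated replicate 2 (0.0349).

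Transcription factor genes closed the set. Bhlhe40 (ENSRNOG00000007152), a repressor of the circadian system, had 10386, 9755, 8931, 11988 and 11084 normalized counts in the libraries labelled iAs, against 3740.3, 4880.1, 5651 and 6259 in the untreated libraries. The groups were well apart, and the rise was 2.06-fold (log2 difference 1.04, SE 0.13, limma adjusted p = 1.45e-04). Mxi1, an antagonist of Myc, rose by 0.46 (SE 0.06, adjusted p = 1.34e-04), with narrow ranges of 5210.1 to 5611 in those labelled iAs and 3653 to 4399 in the untreated libraries. Nfil3, a leucine zipper repressor, was not called (-0.24, adjusted p = 0.479). Of the 23 target genes tested, 13 were thus called higher, 1 lower and 9 were not called.

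**Figure D3:**
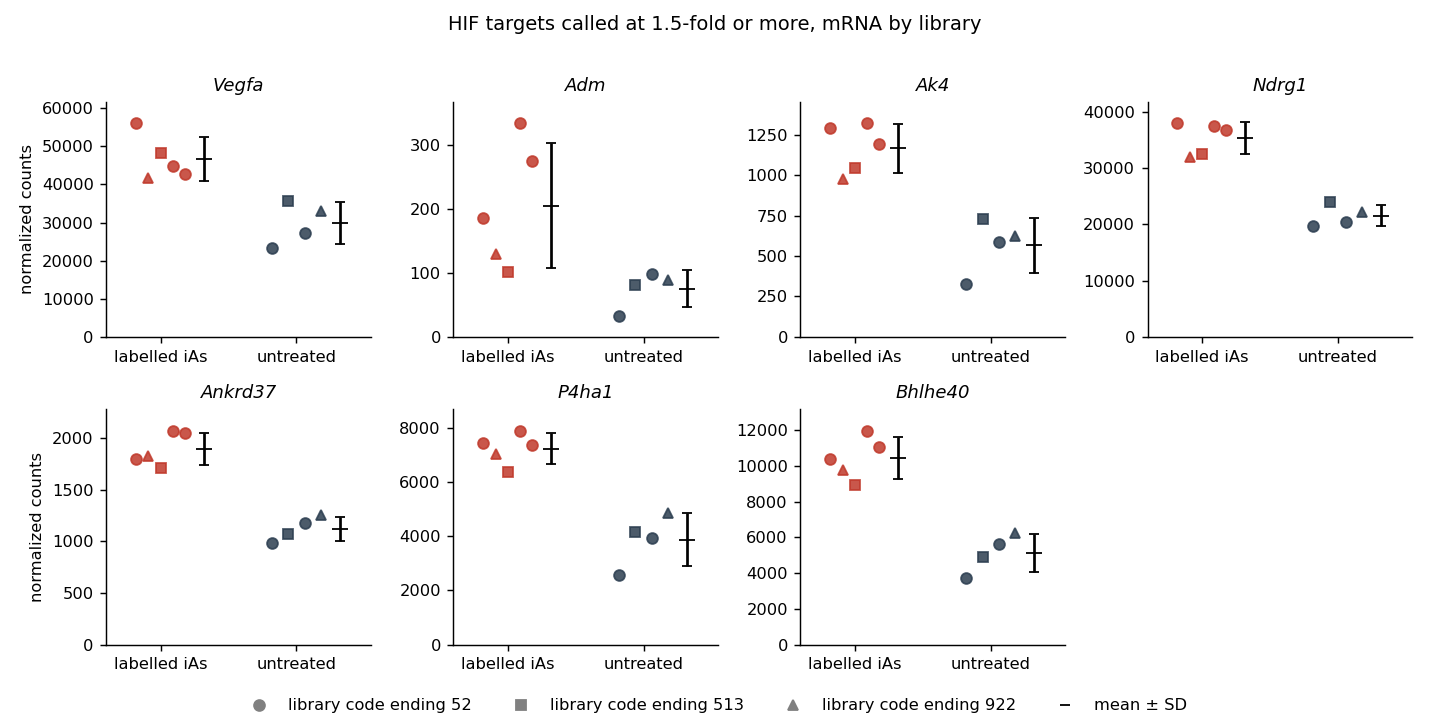
Normalized counts (vertical axes, from 0) of the 7 target genes called at 1.5-fold or more in each mRNA library, libraries labelled iAs left and untreated right, with symbols for the library code ending and bars for mean ± SD. No gene has an overlap between the groups, and the untreated library lowest in each panel is replicate 1.

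The members also varied among the untreated libraries. Untreated replicate 1 was the lowest untreated library for 13 of the 14 members called higher, Fam162a being the exception, and for 23 of the 31 members tested. It was the lowest untreated library for 22.5% of all genes called higher and for 20.3% of all genes tested. The coefficient of variation had a median of 10% over the members in the libraries labelled iAs and 13.6% in the untreated libraries, against 9.6% and 9.9% over all genes tested. For Egln3 it was 8.5% in those labelled iAs and 31.2% in the untreated libraries, and for P4ha1 7.9% and 24.9%. Without untreated replicate 1, 12 members were called higher and 2 lower. Over all genes that fit called 1808 higher and 1702 lower, against 2181 and 2140 with all libraries. The log2 differences of the members at 1.5-fold or more were then smaller, as for Adm (1.06 against 1.41) and Ak4 (0.85 against 1.09). Vegfa went from 0.66 to 0.55, under the 0.585 of a 1.5-fold change.

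The library codes carry 3 different endings, whose meaning the labels do not give. The endings used here are those of the code in the description, which differs from the code in the title for 4 libraries. By the description, ending 52 covers iAs replicates 1, 4 and 5 and untreated replicates 1 and 3. By the title it would cover iAs replicates 1, 3 and 5 and untreated replicates 1 and 2. A second ending covers the pair iAs replicate 3 and untreated replicate 2, and the last ending covers the pair iAs replicate 2 and untreated replicate 4. Of the 14 members called higher, 13 (92.9%) had a positive difference within each ending, as had 98.0% of all genes called higher, a sign that the call over the same libraries largely fixes. Kdm3a was the exception, at -0.02 in the pair iAs replicate 2 and untreated replicate 4. For the 8 members at 1.5-fold or more, the log2 difference lay between 0.87 (Ankrd37) and 2.15 (Adm) in ending 52. It lay between 0.32 (Adm) and 0.96 (Egln3) in the pair with iAs replicate 3, and between 0.33 (Vegfa) and 0.64 (Ak4) in the pair with iAs replicate 2, where single libraries allow no test. The difference was largest in ending 52 for 12 of the 14, against 28.3% of all genes called higher. Ending 52 includes untreated replicate 1, the lowest untreated library for 13 of these 14, so the patterns are not independent. Whether the endings truly differ was not tested. In the libraries of ending 52 alone 17 members were called higher and 0 lower, and with the ending as a term in the fit 17 and 2. Over all genes the same fits called 1528 higher and 1429 lower in ending 52 alone and 2681 and 2597 with the term, against 2181 and 2140 without it. The term added Bnip3l (adjusted p = 0.0352), Higd1a (0.0377) and Kdm4b (0.0344), and in ending 52 alone Bnip3 (0.385, adjusted p = 0.0102) and Plod1 (0.427, adjusted p = 0.04) were among those called.

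Nfil3 and Ddit4 were highest in the same library of each group. Nfil3 had 2183 normalized counts in iAs replicate 2 and 2255 in untreated replicate 4, which share a code ending, against 987 to 1152 in the other libraries labelled iAs and 1171 to 1329 in the other untreated libraries. Ddit4 had 2247 in iAs replicate 2 and 2617 in untreated replicate 4, against 1112 to 1580.4 in the other libraries labelled iAs and 1084 to 1304 in the other untreated libraries. Neither gene was called in any of 21 alternatives, with adjusted p from 0.0596 for Nfil3 and from 0.185 for Ddit4. Without this pair 14 members were called higher and 1 lower, an alternative chosen after these values were seen. Over all genes that fit called 1983 higher and 1894 lower, against 2181 and 2140 with all libraries.

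**Figure D4:**
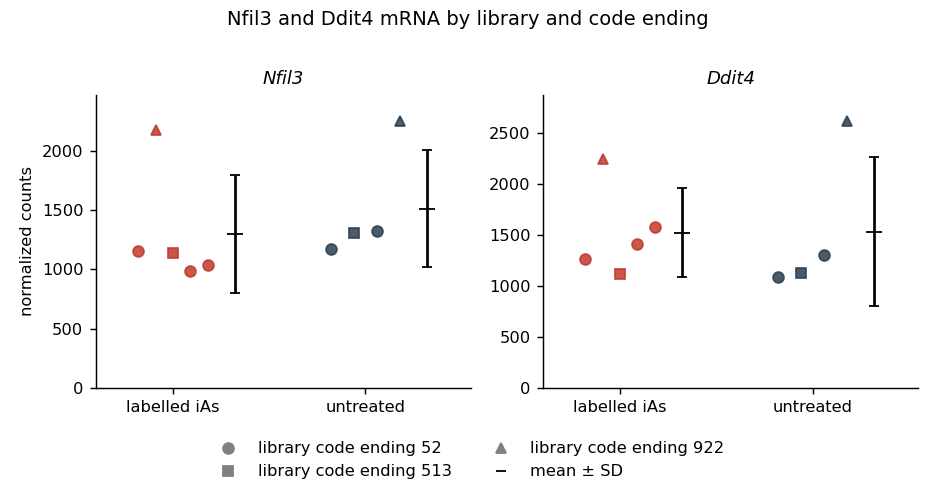
Normalized counts (vertical axes, from 0) of Nfil3 and Ddit4 in each mRNA library, libraries labelled iAs left and untreated right, with symbols for the library code ending and bars for mean ± SD. In both groups the library drawn as a triangle is the highest, at 2183 and 2255 for Nfil3 and 2247 and 2617 for Ddit4.

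HIF pathway genes outside the set were read from 2 further lists. Of 13 other regulators, 11 were tested, 1 was called higher and 1 lower. Cited2, a HIF target whose product competes with the alpha subunit for its coactivators, had 9758, 7529, 6816, 11592 and 10857 normalized counts in the libraries labelled iAs and 3002, 4858, 4553 and 6387 in the untreated libraries, with no overlap (log2 difference 1.01, limma adjusted p = 0.00296). Elob, which encodes elongin B of the Vhl ligase, had 8828 to 9571 in those labelled iAs and 9687 to 11859 in the untreated libraries (-0.25, adjusted p = 0.00825). Of 30 other targets outside glycolysis, 25 were tested, 9 were called higher and 0 lower, with a median of 0.15. The glycogen branching enzyme gene Gbe1 rose by 0.94 (adjusted p = 1.55e-04) and Pdk1, a kinase that shuts pyruvate out of the citric acid cycle, by 0.67 (adjusted p = 1.56e-04), both with no overlap between the groups. These shares stand against the 15.1% and 14.9% of all genes called in each direction, and the lists were chosen with earlier results known.

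The proximal promoters of the members were searched for the core letters of the hypoxia response element, ACGTG and GCGTG, on both strands, in the RefSeq windows of build GRCr8 that run from 250 bases before to 50 after the start site. A window with CACGTG holds ACGTG on both strands and counts at both places. Entries were matched by symbol for 29 of the 31 members tested. Either motif was present for 20 of the 29, against 44.6% of 27457 genes in the table. The windows of the members had a median GC content of 67.7%, against 51.7% over all windows, and no allowance was made for it. Members called higher held the letters in 9 of 13 (69.2%) and the other members in 11 of 16 (68.8%), with no test of the difference. Egln3, Vegfa and Adm had no match in this window, and no entry was matched for Ndrg1 and Bnip3l. The 4 members with a rise of 1.5-fold or more that did have one are shown, together with P4ha2 because it held more matches than its relative P4ha1 without a called difference. Letters run 5′ to 3′ on the strand of the gene, and capitals mark each match on either strand.
Ankrd37, chr16:53001257-53001556, plus strand, 5 matches: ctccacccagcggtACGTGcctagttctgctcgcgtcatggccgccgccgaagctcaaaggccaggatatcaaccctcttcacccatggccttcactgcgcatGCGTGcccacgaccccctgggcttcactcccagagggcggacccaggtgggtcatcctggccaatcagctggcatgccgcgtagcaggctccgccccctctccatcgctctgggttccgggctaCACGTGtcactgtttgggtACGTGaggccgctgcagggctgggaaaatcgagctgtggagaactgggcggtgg
Bhlhe40, chr4:143174200-143174499, plus strand, 4 matches: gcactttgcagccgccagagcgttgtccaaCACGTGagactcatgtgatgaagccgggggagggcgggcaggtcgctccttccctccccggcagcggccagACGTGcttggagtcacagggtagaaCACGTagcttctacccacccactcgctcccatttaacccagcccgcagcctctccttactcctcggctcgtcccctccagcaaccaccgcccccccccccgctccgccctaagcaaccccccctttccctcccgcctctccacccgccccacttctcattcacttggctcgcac
P4ha1, chr20:27844796-27845095, plus strand, 3 matches: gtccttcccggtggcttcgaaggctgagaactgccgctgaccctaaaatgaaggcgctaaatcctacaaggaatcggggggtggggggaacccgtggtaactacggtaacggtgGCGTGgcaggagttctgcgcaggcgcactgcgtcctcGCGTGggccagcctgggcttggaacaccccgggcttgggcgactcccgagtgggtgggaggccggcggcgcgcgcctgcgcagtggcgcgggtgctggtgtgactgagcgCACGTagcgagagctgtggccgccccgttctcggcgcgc
Ak4, chr5:121154886-121155185, plus strand, 1 match: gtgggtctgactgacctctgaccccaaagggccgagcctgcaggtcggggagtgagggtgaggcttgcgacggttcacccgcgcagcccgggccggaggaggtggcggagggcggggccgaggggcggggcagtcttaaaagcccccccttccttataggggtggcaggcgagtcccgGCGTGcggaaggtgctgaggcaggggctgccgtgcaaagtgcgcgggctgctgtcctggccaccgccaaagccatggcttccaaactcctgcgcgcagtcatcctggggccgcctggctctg
P4ha2, chr10:38743644-38743943, plus strand, 5 matches: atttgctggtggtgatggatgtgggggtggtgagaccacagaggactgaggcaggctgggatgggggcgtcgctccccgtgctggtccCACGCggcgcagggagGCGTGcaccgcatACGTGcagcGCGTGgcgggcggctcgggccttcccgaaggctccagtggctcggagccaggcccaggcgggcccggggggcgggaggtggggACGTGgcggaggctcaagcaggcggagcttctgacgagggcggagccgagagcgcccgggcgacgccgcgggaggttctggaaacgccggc
In Ankrd37 the matches nearest the start site begin at -23, -22 and -4, and in Ak4 the single match begins at -72. A match is a run of letters and not a measured binding site.

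The small RNA libraries hold the microRNA best known as a HIF target, miR-210, and they are the libraries that cover Cd and Mn as well. Its mature forms in RefSeq, with the seed (bases 2 to 8) in capitals because it is the part that pairs with target mRNAs, come from chromosome 1 of GRCr8, minus strand, the 3p form from chr1:205755946-205755967.
rno-miR-210-3p: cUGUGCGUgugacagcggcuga
rno-miR-210-5p: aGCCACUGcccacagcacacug
Levels are in RPMMM, reads scaled to the microRNA total of each library. The 3p form, the dominant arm, had 298, 441 and 314 RPMMM in iAs replicates 1 to 3, 471, 447 and 424 with Cd, 412, 385 and 403 with Mn, and 654, 585 and 501 in untreated cells. All 9 metal-exposed libraries lay below the lowest untreated library, and iAs replicate 2 stood above the other libraries exposed to iAs. Against untreated cells the 3p form was lower by a log2 difference of -0.74 with iAs (SE 0.13, limma adjusted p = 0.00239) and of -0.53 with Mn (SE 0.13, adjusted p = 0.0296). Its direction with iAs was opposite to that of the 13 target mRNAs called higher, of 23 tested, in the mRNA libraries labelled iAs. That contrast rests on the mRNA group labels, for which both check genes, Hmox1 and Mt1, went opposite to their known response to arsenite. The cause of the contrast was not tested. With Cd the difference of -0.37 (95% interval -0.64 to -0.09) was not called (adjusted p = 0.0859). The share of the 523 microRNA rows called in either direction was 8.41% with iAs, 7.46% with Mn and 10.5% with Cd. Lower calls made up 5.74% of rows with iAs, 4.97% with Mn and 6.88% with Cd, and the 3 comparisons share the untreated libraries. These shares depended on single libraries. With Cd the 55 rows called became 0 without Cd replicate 3, 1 without Cd replicate 1 or untreated replicates 1 or 2, 30 without Mn replicate 3, 36 without iAs replicate 3 and 94 without untreated replicate 3, and 0 when Cd and untreated libraries were fitted alone. With Mn the 39 rows became 4 to 18 without any 1 Mn replicate or untreated replicates 1 or 2, 21 without Cd replicate 3, 22 without iAs replicate 3 and 89 without untreated replicate 3. With iAs the 44 rows became 21 to 28 without iAs replicates 1 or 3, Cd replicate 3 or untreated replicate 2, and 80 or 81 without untreated replicate 3 or iAs replicate 2. Leaving out any Mn replicate ended the Mn call (adjusted p of 0.086 to 0.102), as did leaving out untreated replicate 1 (0.116) or 2 (0.075). The Cd difference was called without untreated replicate 3 (-0.47, adjusted p = 0.0299), and without iAs replicate 2 (0.0227), which shares the fit. Between metals, the 3p form differed by -0.37 for iAs against Cd (adjusted p = 0.158), by -0.21 for iAs against Mn (0.341) and by 0.16 for Cd against Mn (0.566), and none of the 3 was called. Of all rows, 2.87% were called for iAs against Cd (2.29% lower), 17.0% for iAs against Mn (9.75% lower) and 7.46% for Cd against Mn (3.82% lower).

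**Figure D5:**
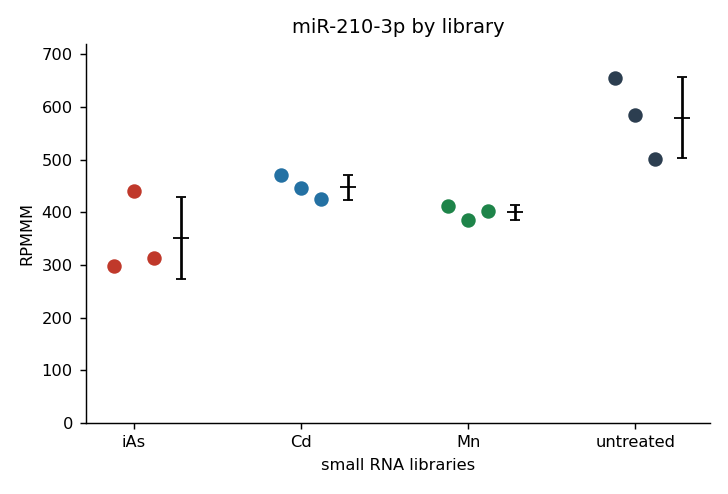
Level of miR-210-3p in RPMMM (vertical axis, from 0) in each of the 12 small RNA libraries, 3 for each metal and 3 untreated, with bars for mean ± SD. All libraries exposed to a metal lie below the lowest untreated library at 501.

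The 5p form was scarce, at 18.1 ± 0.41 RPMMM with iAs, 25.7 ± 4.11 with Cd and 20.1 ± 0.67 with Mn, against 21.0 ± 2.48 in untreated cells (SD, n = 3 each). It was not called for any metal (limma adjusted p = 0.271 with iAs, 0.163 with Cd and 0.81 with Mn).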

How the data were processed

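The deposited mRNA table holds normalized counts, treated here as a signal and not as whole counts, named as DESeq2 output per the labels. STAR, Salmon, DESeq2 and the build rn6 are listed, per the submitters' processing notes, without versions or roles. Whether counting used strand is not given in the sources used here. Low values lay within 0.05 reads of a whole number in 81.0% to 90.9% of cases, so whole reads were not recovered and the planned count tests were not run. The deposited small RNA table is in RPMMM, which is an RPM unit scaled to microRNA reads, per the labels.

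Columns were matched to samples by the code in the description, which differs from the code in the title for 4 mRNA libraries, within the same group. For group differences, limma-trend (limma 3.58.1, R 4.3.3, two-sided) was run on log2(value + 1), which understates changes of low genes. The fits took the 14410 genes averaging 10 or more normalized counts and the 523 microRNA rows averaging 10 or more RPMMM, and p-values were adjusted by Benjamini-Hochberg within each comparison, with a threshold of 0.05. The 12 small RNA libraries shared 1 fit of 4 groups. Values per library are given for the 8 regulators and for targets called at 1.5-fold or more. Nfil3 and Ddit4, the promoter of P4ha2 and the role of untreated replicate 1 were singled out after their values were seen. The members and lists were chosen with earlier results of these data known, so counts over them are descriptions. The fitting step was tested on simulated data. Alternatives varied the pseudocount, filter, scaling, variance model, block, code ending and libraries.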

Additional observations from a re-analysis of the deposited data

Results flagged for a closer look

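In 62 groups (31 members in each of the 2 mRNA groups), 5 had a library far from the others by Dixon's criterion, which chance meets in about 1 of 20 groups. Nfil3 stood out in iAs replicate 2, at 2183.13 normalized counts against 987 to 1152 in the other libraries labelled iAs, and in untreated replicate 4, at 2255.27 against 1171 to 1329 in the other untreated libraries. Ddit4 stood out in untreated replicate 4, at 2617.05 against 1084 to 1304. Both of these libraries share a code ending. Hif1an was far below the others in the same untreated replicate 4, at 1067.26 against 1382 to 1409.5. Plod1 was far below in untreated replicate 1, at 1268.74 against 1689.96 to 1745.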

How the results depend on the processing

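Of the 14 members called higher, 10 kept their call in each of 21 alternatives: Egln3, Vegfa, Ak4, Fam162a, Ndrg1, Ankrd37, P4ha1, Jmjd6, Bhlhe40 and Mxi1. The number called higher ran from 10 (replicate block) to 17 (code ending), and from 12 to 15 over the libraries left out one at a time. Over those same libraries left out, all genes called higher ran from 1753 to 2067. The 2 called lower became 1 with no filter, with equal totals, with no mean-variance trend and without the pair iAs replicate 2 and untreated replicate 4 (chosen after the data were seen), became 0 with a replicate block and in ending 52 alone, and ran from 1 to 2 over the libraries left out. Same-numbered mRNA libraries correlated at -0.041 to 0.031 in their deviations from group means. No library labelled iAs correlated best with the untreated library of its own number, so the numbers are not taken to pair them. The replicate block uses these numbers and leaves out iAs replicate 5. With the replicate block all genes called higher numbered 1349 and lower 1415, against 2181 and 2140. The part of the missing library in calls lost with the block was not tested. With equal totals that split was 1787 and 2528. For miR-210-3p the Mn call was lost with no filter (-0.53, adjusted p = 0.0594); over the libraries left out, Mn ran from -0.629 to -0.437 and Cd from -0.468 to -0.275. Among members not called, signs turned in ending 52 alone for Arnt (-0.014), Car9 (-0.065), Epas1 (0.159) and P4ha2 (0.068), and without that pair for Epas1 (0.058) and Hif1an (-0.011). Over the libraries left out, differences with a turned sign in some ran from -0.102 to 0.341 for Ddit4, -0.081 to 0.04 for Epas1 and -0.07 to 0.026 for P4ha2. The cause of these shifts was not tested. The planned edgeR and DESeq2 fits were not run, since whole reads were not recovered.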
